A study of Rattus norvegicus with 15 samples.

Results

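The comparison described here sets mucosal cells of the rat ileum, the last stretch of the small intestine, against mucosal cells of the colon, its neighbour across the ileocaecal border. Its members were all samples whose titles named ileal cells (3) or colonic cells (3), which made 6 of the 15 samples of a series that also held stomach, duodenum and jejunum. Every gene of an Agilent whole-genome rat array that passed a filter on dim probes was compared, 33790 genes, of which 15541 carried a gene symbol. Ileal samples 1 and 2 and the 3 colonic samples came from male rats of the outbred Sprague Dawley strain, whereas the labels of ileal sample 3 gave neither strain nor sex. No ages were given and no treatment was applied to any group. Per the series text, the gut was everted, briefly digested with the protease mixture pronase and elutriated, a separation of cells in a fluid stream, and RNA came from 3 independent isolations. Separate animals were not stated, so the p-values below measure only the spread between these samples.

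The ileum is known for recovering bile acids and vitamin B12 from the gut contents, for Paneth cells, which sit in its crypts and secrete antimicrobial peptides, and for its lymphoid tissue. The colon recovers salt and water, carries a thick mucus layer and meets a dense bacterial flora, whose fermentation supplies short-chain fatty acids to its surface cells. Both share an epithelium of absorptive cells, goblet cells and hormone cells, which is renewed from crypts.

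The 3 ileal samples were hybridised with the dye Cy3, each to a different array. The second channels of these arrays hold RNA that the labels do not assign, and they were not used. The effect of that RNA on the dye-normalized signals was not tested. Colon 1 (Cy3) and colon 2 (Cy5) were the channels of a single hybridisation, and colon 3 (Cy5) was scanned on a different day from a slide that carries their barcode. Colon 1 is therefore the only colonic sample in the fits of Cy3 samples only. The difference in the model of ileum and colon alone with a dye term also rests on colon 1. A call lost in these fits cannot be put down to the dye. Scan days and scanner software versions did not overlap between ileum and colon, so the segment, the scan day and the software version cannot be told apart. Median processed intensities were 300.1, 758.5 and 1048 units in ileum 1 to 3, against 184.2, 183.5 and 92.4 units in colon 1 to 3. The share of spots that the scanner software called well above background was 44.4% in ileum 1 and 85.0% and 83.9% in ileum 2 and 3, against 74.5% to 90.6% in the colon. Per the file headers, the multiplier that sets this call was 13 for ileal and 2.6 for stomach samples, and colonic headers gave none. Whether the same rule held in ileum and colon is therefore not known. Counts of samples well above background, and bounds that use them, carry this limit. Levels are given as the log2 intensity relative to the 75th percentile of the same sample, so a level of 0 is that percentile and each unit is a doubling. Correlations over all genes ran from 0.937 to 0.963 between ileal samples and from 0.97 to 0.983 between colonic samples, against 0.883 to 0.913 between an ileal and a colonic sample. These correlations are across genes, which are not independent replicates.

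In a limma model of all 15 samples with terms for segment and dye and a random block for slides, 5177 of the 33790 genes differed between ileum and colon at a Benjamini-Hochberg adjusted p under 0.05, which is 15.3%. Of these, 2588 (7.66%) were higher and 2589 (7.66%) lower in the ileum. Without colon 1 the counts were 1538 and 1477. The difference exceeded 4-fold for 1796 of the called genes and 16-fold for 172, of which 114 were higher and 58 lower in the ileum. The ileum against the jejunum, its neighbour on the other side, gave 1433 called genes (4.24%) in the same model, 1.47% higher and 2.77% lower in the ileum. The duodenum against the jejunum gave 174 (0.515%), 0.249% higher and 0.266% lower in the duodenum. The comparisons share ileal or jejunal samples. Duodenal and jejunal samples shared arrays, whereas no ileal sample shared an array with another labelled sample.

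The direction of a call went with the brightness of the gene. The genes were split by mean level into 3 classes of equal size. In the dimmest class 1007 were higher and 70 lower in the ileum, and the median difference was 0.50 on the log2 scale. In the middle class 1103 were higher and 331 lower, with a median of 0.13. The brightest class held 478 higher and 2188 lower genes, with a median of -0.37. Over all genes the median was 0.07, against -0.41 after normexp background correction, where 1711 genes were higher and 3695 lower, so that 31.7% of the calls lay higher in the ileum instead of 50%. Quantile normalization gave 2011 higher and 1573 lower genes. Counts for the gene lists below are set beside the number of members called in the same direction under all 4 scalings, which are the 75th percentile, quantile normalization, the median of bright probes and normexp. Each list count is to be read against 7.66% of all genes called in each direction. Among the 11263 genes of the brightest class, 478 were higher and 2188 lower.

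**Figure D1:**
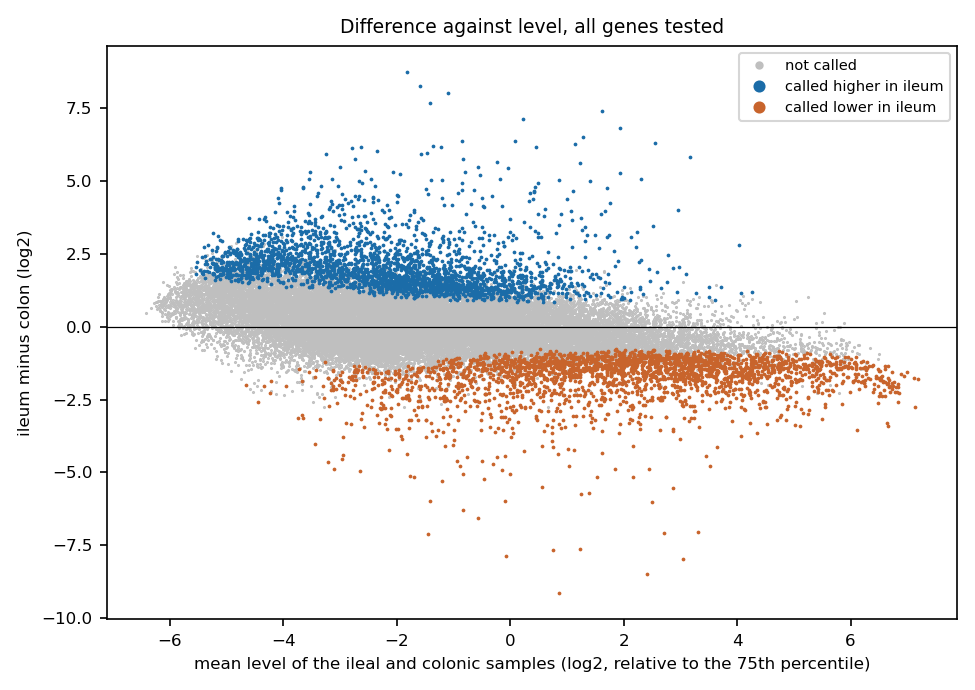
The difference between ileum and colon (ileum minus colon, log2) is plotted against the mean level of the 6 samples for each of the 33790 genes tested, with blue points for the 2588 genes called higher and orange points for the 2589 called lower in the ileum. Blue points lie mostly at low levels and orange points mostly at high levels.

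The 5 genes given as markers of the segments were each called, and their ileal and colonic samples did not overlap, as was so for 47.6% of all genes. Fabp6, the bile acid binding protein of the ileal enterocyte, had levels of 5.87, 6.03 and 4.96 in the ileum, against -0.33, -0.79 and -0.47 in the colon. Its probe was saturated in all 3 ileal samples, so the ileum was at least 71.1-fold higher (adjusted p = 6.29e-07, limma). For a gene saturated on every array of its brighter group, or not well above background on any array of its dimmer group, such a bound replaces the fold. It sets the mean of the brighter group against the higher of the dim probe's own signal and the lowest signal called well above background on each array. Of 123 genes named below with a measured fold, 8 were well above background in 1 sample of the dimmer segment and 28 in 2 samples, and such folds rest in part on signal near background. RT1-Ba, an alpha chain of the rat class II antigen-presenting molecules, stood at 1.84, 1.41 and 1.34 in the ileum, against -4.28, -4.34 and -4.17 in the colon, a 74.3-fold higher level in the ileum (adjusted p = 5.65e-05, limma), with 2 of 3 colonic samples well above background. Mptx1, a pentraxin of the gut mucosa, was -1.56, -1.98 and -2.53 in the ileum, against 6.66, 6.79 and 7.09 in the colon, which is 360.1-fold lower in the ileum (adjusted p = 1.76e-07, limma). Car1, a carbonic anhydrase of colonic surface cells, stood at -1.44, -0.93 and -0.24 in the ileum, against 6.88 and 7.08 in the colon, and its colon 3 spot was left out as an outlier. The ileum was 253-fold lower (adjusted p = 5.68e-07, limma). Hoxb13, a homeobox gene of the hindmost body axis, had -4.07, -5.08 and -4.16 in the ileum, against 0.37, 1.07 and 1.22 in the colon, and was well above background in none of the ileal samples. Its level in the ileum was at least 18.1-fold lower (adjusted p = 6.16e-06, limma).

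**Figure D2:**
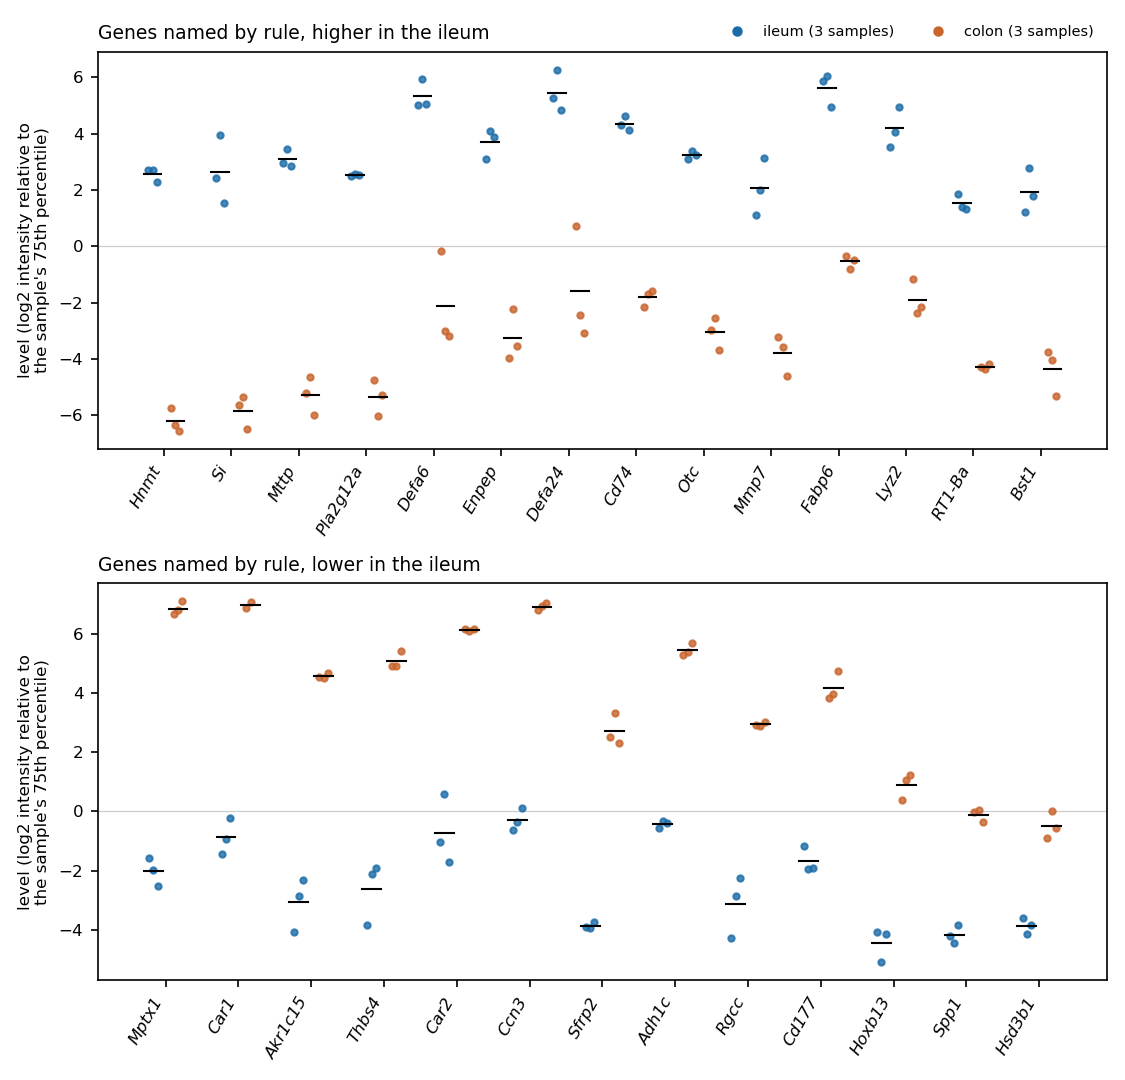
Each point is the level of a gene in 1 sample (log2 intensity relative to the sample's 75th percentile), with ileal samples in blue, left of the colonic samples in orange, and black lines for the group means. The upper panel holds the genes named by rule as higher in the ileum and the lower panel those lower in the ileum. By the terms of that rule, the samples of ileum and colon overlap in none of them.

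Several bile acid genes were higher in the ileum. Of 12 genes of ileal bile acid uptake tested, 5 were called higher in the ileum and 0 lower, and all 5 were called under all 4 scalings. The sodium-dependent bile acid transporter of the brush border, Slc10a2, had levels of 1.52, 1.71 and 2.53 in the ileum, against 0.81, 0.88 and 0.73 in the colon. The step was small for this gene, 1.17 ± 0.37 on the log2 scale (SE; adjusted p = 0.0388, limma), and all ileal samples lay above all colonic ones. The call was lost when any of ileum 2, ileum 3, colon 1, colon 2 or colon 3 was left out (adjusted p from 0.0516 to 0.129, limma). Slc51a and Slc51b encode the subunits of the exporter at the base of the cell. Slc51a was 2.71, 3.24 and 3.34 in the ileum, against -0.59, -0.67 and -0.50 in the colon, and Slc51b was 1.91, 2.88 and 3.56 in the ileum, against -0.90, -0.61 and -0.34 in the colon. Both subunits were higher in the ileum, by 3.74 ± 0.39 and 3.67 ± 0.45 (log2, SE; adjusted p = 8.99e-06 and 4.74e-05, limma). Abcg5, a sterol exporter, was 19.3-fold higher in the ileum, with 1 of 3 colonic samples well above background. Nr1h4, the bile acid receptor, had -1.01, -0.38 and 0.54 in the ileum, against -0.13, -0.25 and 0.01 in the colon and was not called, with overlapping samples (difference -0.07 ± 0.50, log2, SE). The probe of Fgf19, the rat gene of the ileal hormone called Fgf15 in mice, was well above background in 1 ileal and 2 colonic samples and was not called.

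The promoter of Fabp6 is shown because it carries an inverted repeat that is known as the binding element of the bile acid receptor. The stretch runs from base -190 to base -81 before the transcription start, on the minus strand at chr10:28569808-28569917 of the rat build GRCr8 (RefSeq), and capitals mark the element.

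Fabp6: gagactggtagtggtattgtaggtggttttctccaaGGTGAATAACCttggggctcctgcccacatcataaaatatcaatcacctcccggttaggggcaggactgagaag

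The element was searched as the half-site GGTNA, where N is any base, followed after 1 base by its reverse complement, and in Fabp6 the letters GGTGAATAACC begin at base -154. Of 33469 RefSeq promoters of 300 bases, 90 (0.269%) held such a repeat. Among the 9 bile acid genes with a promoter entry it stood in 2, Fabp6 and Slc51b, which was called higher in the ileum. The letters were chosen with these promoters known, so the counts are not a test. A match is a description of the letters and says nothing about binding.

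Vitamin B12 uptake differed less. Of 8 genes, 1 was higher and 1 lower in the ileum. The receptor for the vitamin bound to intrinsic factor is made of the products of Cubn and Amn, and neither was called, with differences of 0.88 ± 0.38 and 1.13 ± 0.53 (log2, SE). Tcn2, the plasma carrier of the vitamin, was higher in the ileum by 1.88 ± 0.40 and Cd320, the receptor for that carrier, lower by 2.90 ± 0.40 (log2, SE), both under all 4 scalings.

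Fat absorption gave some of the largest steps. Of 19 genes of lipid absorption and lipoprotein assembly, 10 were higher in the ileum and 0 lower, all 10 of them under all 4 scalings, and the list median was 1.96. Mttp, which loads lipid onto nascent lipoproteins, had levels of 2.97, 3.44 and 2.85 in the ileum, against -5.19, -4.64 and -5.97 in the colon, 260.3-fold higher in the ileum (adjusted p = 9.08e-07, limma). It was well above background in 1 of 3 colonic samples. Its other probe differed by 3.38 instead of 8.36 (log2), so the size of this step depends on the probe. The apolipoprotein genes Apoa1 and Apoa4 varied within the ileum. Apoa1 was 3.19, 5.35 and 3.40 in the ileum, against -1.27, -1.45 and -0.78 in the colon, and Apoa4 was 2.15, 5.33 and 1.95 in the ileum, against -0.86, -1.06 and -1.09 in the colon, each with ileum 2 far above ileum 1 and 3. Both were called (adjusted p = 0.000226 and 0.0038, limma). With Cy3 samples only, where colon 1 was the only colonic sample, Apoa4 was higher by 4.0 (log2) and was not called. Npc1l1, the cholesterol uptake protein, was higher by 3.32 (log2) and Soat2, which esterifies cholesterol for export, 23.8-fold higher in the ileum. The fatty acid binding protein Fabp2 was higher in the ileum by 2.81 ± 0.48 (log2, SE), whereas its relative Fabp1 was not called, with levels of 4.55, 6.37 and 5.15 in the ileum, against 5.68, 5.84 and 5.73 in the colon. Apob, the scaffold protein of the lipoproteins, missed the threshold (difference 1.96 ± 0.68, log2, SE, adjusted p = 0.0604, limma), although its samples did not overlap.

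Digestive enzymes of the brush border divided by enzyme. Of 17 genes 7 were higher in the ileum, 6 of them under all 4 scalings, and 1 was lower. Si, sucrase-isomaltase, which splits sucrose and starch fragments, had levels of 2.42, 3.96 and 1.53 in the ileum, against -5.64, -5.36 and -6.47 in the colon. Its probe was well above background in none of the colonic samples, and the ileum was at least 155-fold higher (adjusted p = 2.29e-06, limma). Enpep, a glutamyl aminopeptidase, was 3.09, 4.10 and 3.88 in the ileum, against -3.96, -2.21 and -3.54 in the colon, 141-fold higher (adjusted p = 5.4e-06, limma), although its 3 probes differed by 0.60 to 8.05 (log2) and the call was lost where each of the 6 samples had to be well above background (difference 0.54, log2, adjusted p = 0.166, limma). Naaladl1, another brush border peptidase, was 14.5-fold higher in the ileum and Plb1, a phospholipase, 30.5-fold. Dpp4 was the member lower in the ileum, by 1.57 ± 0.42 (log2, SE; adjusted p = 0.0167, limma), and lost its call under quantile normalization and with Cy3 samples only (adjusted p = 0.343 and 0.13, limma). Lct, lactase, was not called, and ileum 2 stood apart at -0.12, against -3.77 and -3.51 in ileum 1 and 3 and -4.78, -5.54 and -3.62 in the colon.

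Transporters for sugars and amino acids showed the same division between genes. Of 11 sugar genes 4 were higher and 2 lower in the ileum, 3 and 1 of them under all 4 scalings. Slc2a5, the fructose transporter, was 0.43, 1.27 and -0.83 in the ileum, against -4.64, -5.43 and -5.47 in the colon, at least 30.9-fold higher (adjusted p = 0.000199, limma), and Tkfc and Khk, enzymes of fructose breakdown, were 10.8-fold and 3.1-fold higher. Without ileum 2, and likewise without colon 1, 2 of the sugar genes were higher, and Khk was not among them (adjusted p = 0.111 and 0.139, limma). The sodium-glucose transporter gene Slc5a1 was not called, with a difference of 0.45 ± 0.37 (log2, SE). Pck1, an enzyme of glucose synthesis, was -0.84, -0.83 and -1.80 in the ileum, against 3.71, 3.16 and 2.84 in the colon, 27.7-fold lower in the ileum (adjusted p = 2.44e-05, limma). Of 17 amino acid and peptide transporter genes 4 were higher and 2 lower, 4 and 1 under all 4 scalings. Slc15a1, which takes up di- and tripeptides, was 2.48, 3.50 and 2.85 in the ileum, against -2.25, -1.75 and -1.94 in the colon, 30.2-fold higher in the ileum. The subunits of the cystine transporter, Slc3a1 and Slc7a9, were at least 36-fold and 18.8-fold higher, and Slc7a7, of the exporter for basic amino acids, was 20.4-fold higher. Slc38a2, a transporter of neutral amino acids, was 5.35-fold lower in the ileum.

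Some of the largest steps lay outside these lists. Hnmt, which inactivates histamine, had levels of 2.70, 2.73 and 2.28 in the ileum, against -5.74, -6.36 and -6.54 in the colon and was well above background in no colonic sample, at least 152-fold higher in the ileum (adjusted p = 6.52e-10, limma). Otc, an enzyme of the urea cycle that makes citrulline in the gut, was 3.09, 3.39 and 3.23 in the ileum, against -2.96, -2.53 and -3.68 in the colon, 83.3-fold higher (adjusted p = 4.91e-07, limma). Pla2g12a, of the secreted phospholipases, was at least 148-fold higher and Bst1, a surface enzyme of NAD metabolism, 71.3-fold higher, with 1 of 3 colonic samples well above background. Samples of ileum and colon that did not overlap were a condition for naming these genes.

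Paneth and antimicrobial products differed in both directions. Of 16 genes, 7 were higher in the ileum, all under all 4 scalings, 3 were lower, 2 of them under all 4, and 6 were not called. Defa6 and Defa24 encode alpha-defensins, the peptides of the Paneth cell granule. Defa24 is in the list, and the other alpha-defensin of the list was not called. Defa6 is not in the list and was named for the size of its difference. Defa6 was 5.03, 5.94 and 5.07 in the ileum, against -0.16, -2.99 and -3.18 in the colon, and Defa24 was 5.26, 6.26 and 4.85 in the ileum, against 0.73, -2.42 and -3.07 in the colon. In both, colon 1 lay far above colon 2 and 3 and still below every ileal sample, and the ileum was 169.6-fold and 113-fold higher (adjusted p = 0.000603 and 0.00383, limma). The probe of Defa6 was saturated in 1 ileal sample and that of Defa24 in 2, which limits both folds. Probes for such closely related defensins may cross-hybridise. Mmp7, the protease that activates the alpha-defensins in mice, was 1.11, 1.99 and 3.12 in the ileum, against -3.21, -3.57 and -4.59 in the colon, 82-fold higher (adjusted p = 0.000597, limma). Lyz2, a lysozyme gene, was 3.54, 4.07 and 4.94 in the ileum, against -1.14, -2.37 and -2.15 in the colon, 76.9-fold higher, and it is also a gene of macrophages. The antibacterial lectin genes Reg3b and Reg3g were at least 45.4-fold and 15.9-fold higher in the ileum, with Reg3b saturated in all ileal samples, and Reg4 was 24.9-fold higher. Against these, Mptx1 and Lcn2 (difference -1.74 ± 0.52, log2, SE) were lower in the ileum, as was the lectin Itln1, which lost its call under quantile normalization and normexp. Without colon 1, and likewise without colon 3, 1 gene of the list was lower, and Lcn2 and Itln1 lost their calls. Lcn2 also lost its call without ileum 1 or ileum 2 (adjusted p = 0.0717 and 0.0913, limma). The call of Itln1 was also lost without ileum 3 (adjusted p = 0.0654, limma). Pla2g2a, the phospholipase of Paneth cells, was not called, with levels of 2.69, 3.40 and 4.62 in the ileum, against 2.41, 2.38 and 2.83 in the colon.

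Class II antigen presentation had the highest median difference of the 46 lists, 3.43 on the log2 scale against 0.07 for all genes. Of 11 genes 7 were higher in the ileum, 6 of them under all 4 scalings, and 1 was lower. Cd74, the invariant chain that escorts class II molecules, had levels of 4.31, 4.61 and 4.14 in the ileum, against -2.16, -1.68 and -1.57 in the colon, 91.7-fold higher in the ileum (adjusted p = 2.46e-06, limma). The chains of the RT1-B and RT1-D molecules moved with it. RT1-Bb was 2.57, 3.12 and 1.79 in the ileum, against -2.03, -1.64 and -1.41 in the colon, RT1-Da was 3.57, 3.58 and 3.41 in the ileum, against 0.02, 0.14 and -0.63 in the colon, and RT1-Db1 was 3.36, 2.99 and 2.49 in the ileum, against -0.44, -0.35 and -0.17 in the colon. Folds for these were 20.9, 15.7 and 10.8 in favour of the ileum (adjusted p = 2.59e-06, 0.000129 and 2.25e-05, limma). Probes of RT1-Db1 differed by 0.23 to 3.88 (log2), and probes of these polymorphic, related genes may cross-hybridise. Ciita, the co-activator that class II promoters depend on, was 0.10, -0.25 and -0.39 in the ileum, against -3.99, -4.65 and -6.32 in the colon, 20.2-fold higher (adjusted p = 0.000427, limma), with 1 of 3 colonic samples well above background. RT1-DMa, a chain of the molecule that loads peptides, was not called, at 2.07, 2.52 and 1.94 in the ileum, against 1.76, 1.77 and 2.22 in the colon. Ctss, a protease of the same route, was lower in the ileum by 1.33 ± 0.30 (log2, SE) and lost its call under quantile normalization and normexp and with Cy3 samples only.

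The promoters of 4 class II genes that rose together are shown because they carry 2 boxes through which class II promoters are known to be controlled. Each stretch runs from base -130 to base -21 on chromosome 20 of GRCr8 (RefSeq). Capitals mark the Y box letters GATTGG on either strand and the letters ACNGATG within the X box, where N is any base. RT1-Ba lies at chr20:4576927-4577036 on the plus strand, RT1-Bb at chr20:4604139-4604248 on the minus strand, RT1-Da at chr20:4515285-4515394 on the plus strand and RT1-Db1 at chr20:4560183-4560292 on the minus strand.

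RT1-Ba: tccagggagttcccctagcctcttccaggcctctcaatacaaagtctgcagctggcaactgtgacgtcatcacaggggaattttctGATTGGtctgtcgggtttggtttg

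RT1-Bb: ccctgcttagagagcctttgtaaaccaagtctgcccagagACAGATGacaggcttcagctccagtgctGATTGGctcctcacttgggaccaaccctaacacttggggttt

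RT1-Da: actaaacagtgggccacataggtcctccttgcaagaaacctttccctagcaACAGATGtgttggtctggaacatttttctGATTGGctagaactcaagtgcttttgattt

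RT1-Db1: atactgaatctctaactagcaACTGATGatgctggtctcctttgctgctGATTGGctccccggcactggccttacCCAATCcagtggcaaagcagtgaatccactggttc

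The Y box began at base -44 in RT1-Ba, -62 in RT1-Bb, -50 in RT1-Da and -81 in RT1-Db1, which held another on the opposite strand at base -55. The X box letters began at base -90 in RT1-Bb, -79 in RT1-Da and -109 in RT1-Db1, and RT1-Ba did not hold these exact letters. Of the 10 list members with a promoter entry, 7 held the Y box letters and 6 the X box letters on either strand, against 14.8% and 10.2% of all 33469 promoters of 300 bases. Both also stood in the promoter of RT1-DMa, which was not called, and neither in that of Cd74. The X box letters also stood in the promoter of Ctss, which was called lower in the ileum. The letters were chosen with these promoters known, so the shares describe the list and are not a test.

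**Figure D3:**
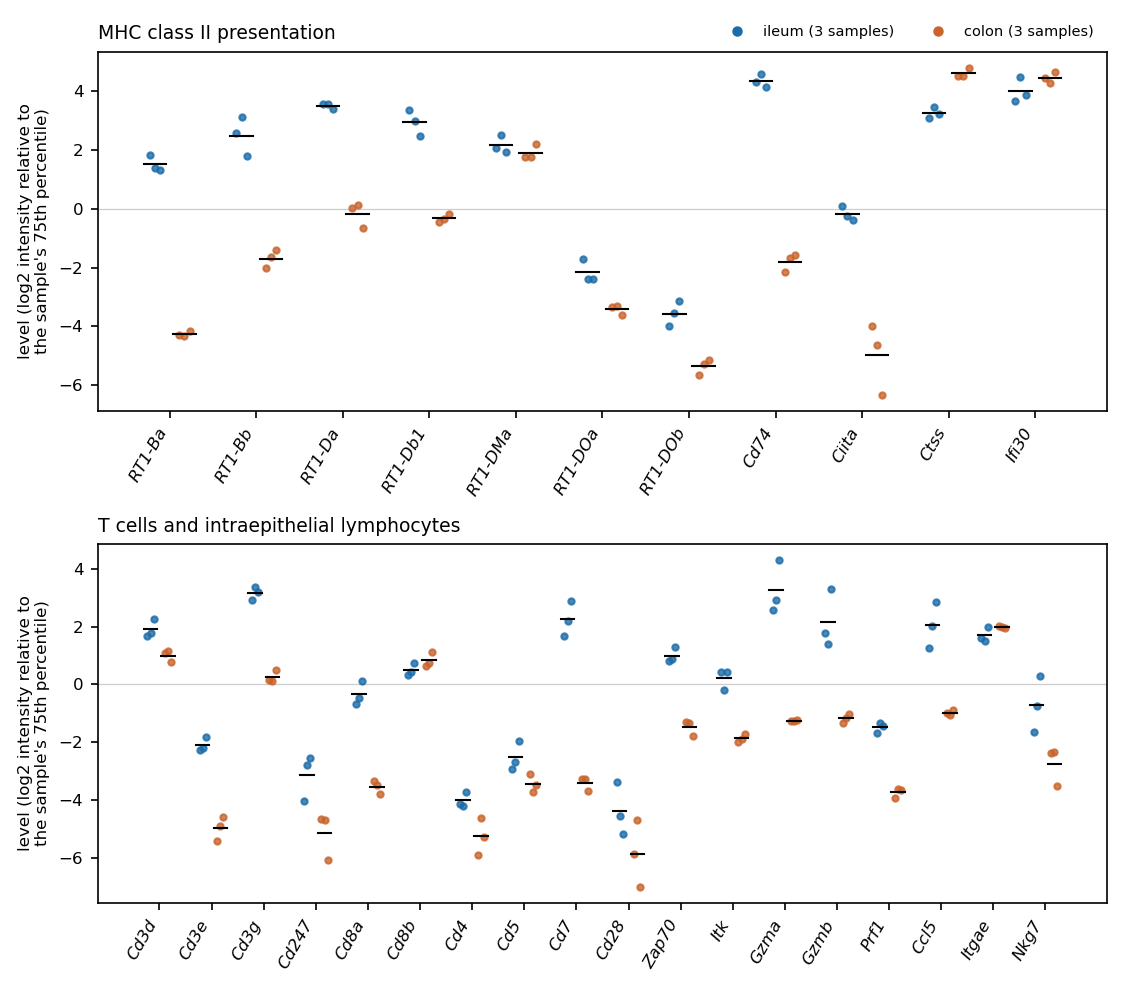
Levels of the 11 class II genes and of the 18 T cell and intraepithelial lymphocyte genes in each ileal sample (blue, left) and each colonic sample (orange, right), on the log2 scale relative to the sample's 75th percentile, with black lines for the group means. Cd74, Ciita and the RT1-B and RT1-D chains stand well apart between the segments, whereas the samples of RT1-DMa overlap.

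Part of the markers tested for T cells, B and plasma cells, and macrophages and dendritic cells were called, each of them higher in the ileum. Of 10 genes of M cells and the epithelium over lymphoid follicles, 1 was higher and 1 lower. Under all 4 scalings these were 1 and 0. Of 18 genes of T cells and intraepithelial lymphocytes 10 were higher and 0 lower, 8 of them under all 4 scalings. Their summed level, in multiples of each sample's 75th percentile intensity, was 34.8 to 70.8 in the ileum, against 11.5 to 11.8 in the colon. Cd7, of lymphocytes, had 1.68, 2.20 and 2.89 in the ileum, against -3.25, -3.25 and -3.67 in the colon, 44.7-fold higher in the ileum (adjusted p = 2.61e-06, limma). Its 2 probes differed by 2.69 and 5.65 (log2). Cd3g, a chain of the T cell receptor complex, was 8.42-fold higher, the killer cell proteases Gzma and Gzmb 20.7-fold and 9.33-fold, and Cd8a 7.88-fold. The 3 probes of Gzmb differed by 1.22 to 5.03 (log2). Cd3d, another chain of the complex, was not called (difference 0.90 ± 0.35, log2, SE). Among 16 macrophage and dendritic cell genes 7 were higher and 0 lower, 5 under all 4 scalings, with summed levels of 29.0 to 46.2 in the ileum, against 8.22 to 8.33 in the colon. Lyz2, described among the Paneth products, is in this list, and without it 6 of 15 were higher and the sums were 12.8 to 17.4 in the ileum, against 7.88 to 8.02 in the colon. C1qc and Aif1 were 5.29-fold and 7.46-fold higher, whereas Cd68 was not called, with overlapping samples at 1.61, 1.39 and 1.08 in the ileum, against 1.31, 1.11 and 1.83 in the colon. Of 13 B and plasma cell genes 4 were higher, 2 of them under all 4 scalings, and Jchain, the joining chain of secreted antibodies, was 5.7-fold higher. The Jchain call was lost with Cy3 samples only, with the colon averaged as 1 sample and without ileum 1 and colon 3 (adjusted p = 0.102, 0.0694 and 0.0528, limma). Without colon 1, 2 of the B and plasma cell genes were higher. The part of these cells in the class II difference was not tested. In a cell suspension, fewer cells of a type and less RNA per cell cannot be told apart.

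On the colonic side, the leading genes were enzymes and secreted proteins. Car2, a second carbonic anhydrase, had levels of -1.03, 0.58 and -1.72 in the ileum, against 6.17, 6.07 and 6.17 in the colon, 135-fold lower in the ileum (adjusted p = 2.98e-06, limma). Among 9 carbonic anhydrase genes 3 were lower in the ileum, 2 of them under all 4 scalings, and 0 higher. Ccn3, a secreted matrix protein also named Nov, was -0.62, -0.37 and 0.12 in the ileum, against 6.79, 6.92 and 7.03 in the colon, 132-fold lower in the ileum (adjusted p = 5.4e-09, limma). Thbs4, a thrombospondin of the matrix, was -3.83, -2.10 and -1.92 in the ileum, against 4.90, 4.92 and 5.42 in the colon, 198-fold lower. Akr1c15, an aldo-keto reductase, was 202-fold lower, the Wnt antagonist Sfrp2 95-fold (its 3 probes differed by -6.66 to -2.14, log2), Adh1c, an alcohol dehydrogenase, 65-fold, Rgcc, a cell cycle regulator, 63-fold, and Cd177, a surface protein of human neutrophils, 53.8-fold. Osteopontin (Spp1) was at least 8.91-fold and Hsd3b1, of steroid synthesis, at least 6.82-fold lower in the ileum. A call in each of the 6 fits that left out 1 ileal or colonic sample was a condition for naming these genes. Of all 5177 called genes, 2611 were called in all 6.

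Electrogenic sodium absorption is the aldosterone-responsive route of the distal colon. Of its 14 genes 8 were lower in the ileum, 1 was higher and 5 were not called, with 6 lower and 0 higher under all 4 scalings, and the list median was -1.66. The channel's subunits differed in sign. Scnn1a and Scnn1b were lower in the ileum by 1.57 and 1.76 (log2), the call of Scnn1a being lost with the mean of its probes (-0.81, adjusted p = 0.116, limma), and Scnn1g was higher by 1.38, a call lost under quantile normalization and normexp and without ileum 3, colon 1 or colon 3 (adjusted p from 0.0577 to 0.0802, limma). Hsd11b2, which shields the mineralocorticoid receptor from glucocorticoids, had 2.46, 2.01 and 2.98 in the ileum, against 6.05, 6.32 and 6.30 in the colon, 12.4-fold lower in the ileum (adjusted p = 4.75e-05, limma). The receptor gene Nr3c2 was 3.27-fold lower. Fxyd4, a regulator of the sodium pump, was -3.02, -2.48 and -2.83 in the ileum, against 1.65, 1.67 and 2.01 in the colon, 24.6-fold lower (adjusted p = 7.76e-06, limma), and Prss8, a protease that activates the channel, 4.53-fold lower.

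Water, proton, calcium and iron routes gave single genes with clear steps. The water channel genes Aqp3 and Aqp8 were 11.3-fold and 9.24-fold lower in the ileum, and Aqp11 was 3.94-fold higher, so that 2 of 8 aquaporins were lower and 1 higher, each under all 4 scalings. Without colon 1 the call of Aqp11 was lost (adjusted p = 0.0581, limma). Aqp8 was -3.18, -3.67 and -2.99 in the ileum, against -0.58, 0.10 and 0.55 in the colon. Atp12a, the proton-potassium pump of the distal colon, was -2.71, -2.67 and -2.44 in the ileum, against 0.43, 0.46 and 0.52 in the colon, 8.35-fold lower (adjusted p = 0.000176, limma), one of 3 lower and 1 higher among 19 exchanger genes, of which 1 and 1 held under all 4 scalings. Of all genes, 7.66% were called in each direction, and 2188 of the 11263 in the brightest class were lower. Of 17 genes of mineral and vitamin uptake 6 were lower in the ileum and 2 higher, 4 and 2 under all 4 scalings. The calcium channel Trpv6 and the calcium carrier S100g were 5.07-fold and 5.92-fold lower, and Cybrd1, an iron reductase, 9.05-fold lower. Slc23a1, a vitamin C transporter, was 23.1-fold higher and the zinc transporter Slc30a2 13.2-fold higher. Among 20 claudin and tight junction genes 5 were lower and 1 higher, 2 and 1 under all 4 scalings. Cldn8, a sealing claudin, was 4.94-fold lower in the ileum, whereas Cldn15, which forms sodium pores, was 3.69-fold higher.

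**Figure D4:**
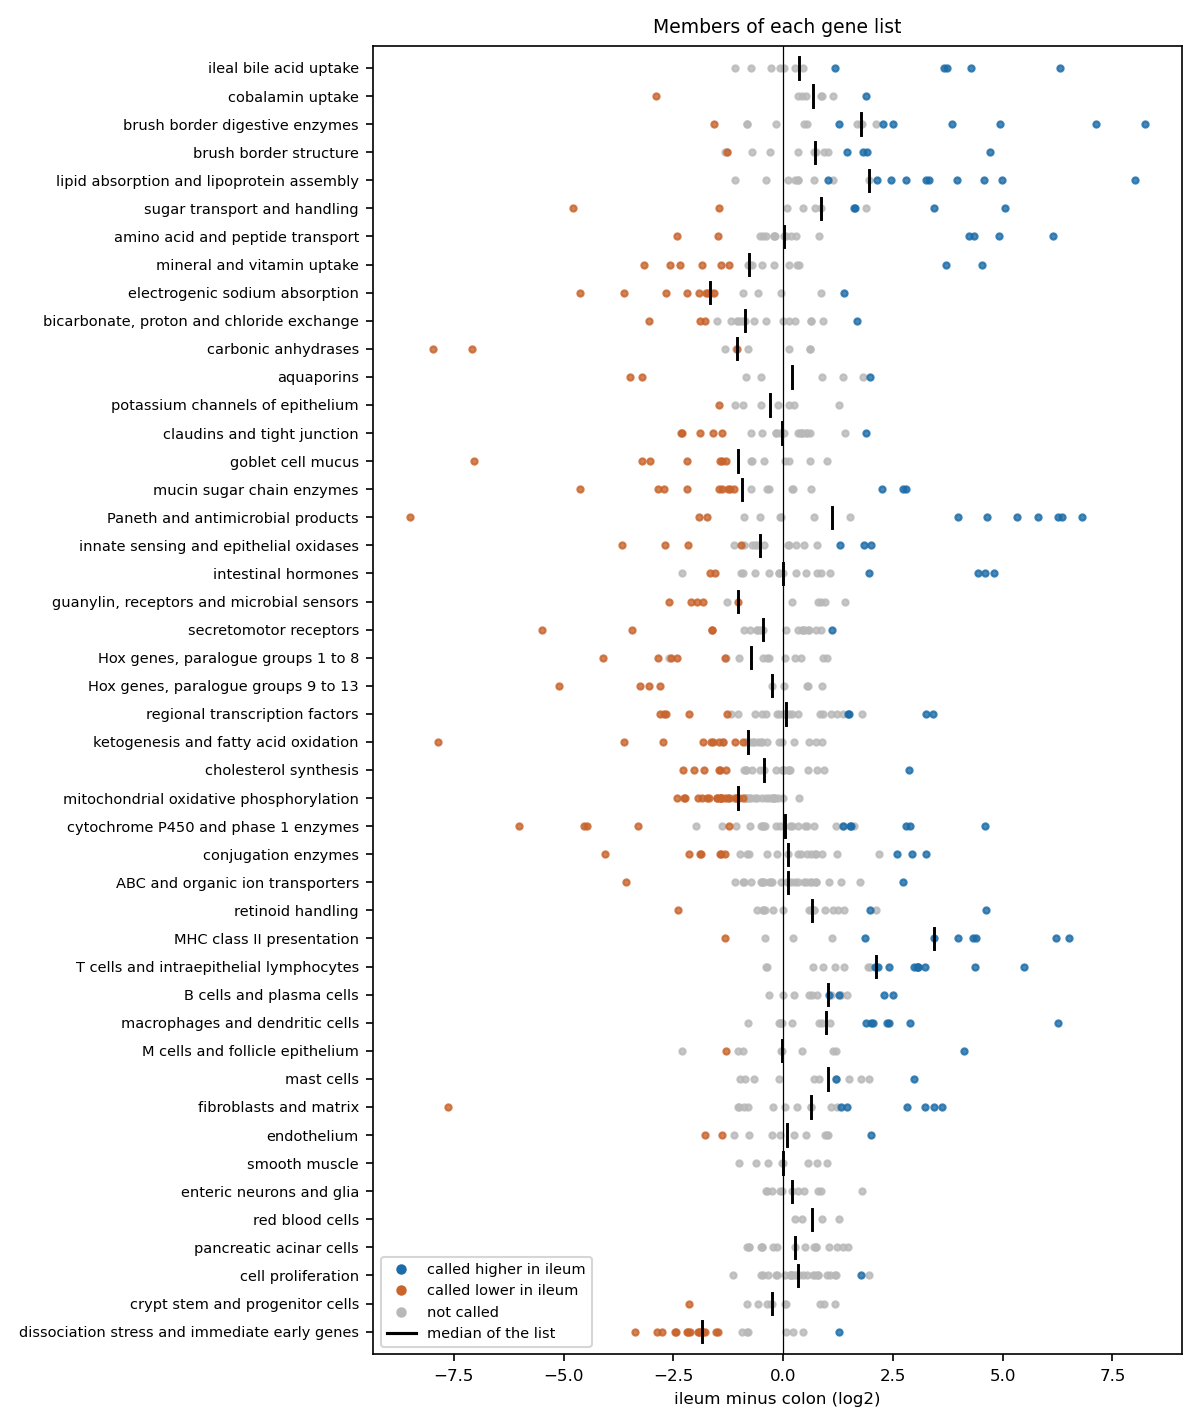
Each point is the difference between ileum and colon (ileum minus colon, log2) of 1 member of a gene list, blue where called higher in the ileum, orange where called lower and grey where not called, with a black bar at the median of the list. Class II genes have the highest median, 3.43, and the stress and immediate early genes the lowest, -1.85.

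Mucus genes were lower or not called in the ileum at the 75th percentile scaling, 7 lower and 0 higher of 14, but 4 of the others were called higher under quantile normalization and 4 under normexp. Calls of 5 held under all 4 scalings, and Ccn3, the matrix protein described above, is 1 of these 5. Muc2, the main mucin of the goblet cell, was -0.47, 0.05 and -0.35 in the ileum, against 1.26, 0.63 and 0.79 in the colon, lower in the ileum by 1.29 ± 0.37 (log2, SE; adjusted p = 0.026, limma). Spdef, the transcription factor of goblet cell maturation, was 4.54-fold lower and the kallikrein Klk1 9.23-fold lower. The Muc2 call was lost without ileum 1, ileum 3, colon 1 or colon 3 (adjusted p from 0.0574 to 0.149, limma). Tff3 and Agr2, secreted by the same cells, were not called. Enzymes that build mucin sugar chains went both ways, 9 of 18 lower and 3 higher, 6 and 2 of them under all 4 scalings. The sialyltransferase St6galnac6 was -4.05, -2.83 and -2.84 in the ileum, against 0.86, 1.22 and 2.04 in the colon, 24.6-fold lower in the ileum, and B3gnt7 was 7.24-fold lower (a call lost with ileum and colon alone plus a dye term, adjusted p = 0.0729, limma), whereas St6gal1 was 6.63-fold and the branching enzyme Gcnt3 4.73-fold higher.

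Bacterial sensing genes gave 4 lower and 3 higher of 18, of which 3 and 2 were called under all 4 scalings. Tlr4, the receptor for lipopolysaccharide, was -0.94, -1.56 and -0.67 in the ileum, against 2.70, 2.50 and 2.43 in the colon, 12.6-fold lower in the ileum (adjusted p = 8.6e-06, limma), and its co-receptor Cd14 was 6.48-fold lower. Il18, an epithelial cytokine, was 4.48-fold lower, a call lost with the mean of its probes (difference -0.91, log2, adjusted p = 0.0857, limma), and Nlrp6, an inflammasome sensor, was 4-fold higher. The 2 probes of Il18 differed by -2.02 and 0.32 (log2). Of 19 hormone genes 4 were higher in the ileum, all under all 4 scalings, and 2 lower, neither of them under all 4. Nts, neurotensin, was 2.71, 2.96 and 2.80 in the ileum, against -1.69, -1.95 and -2.19 in the colon, 27.8-fold higher (adjusted p = 3.36e-07, limma), and Gip, Tac1 and Sct were 24.2-fold, 21.5-fold and 3.9-fold higher. The call of Sct was lost without ileum 3 or colon 1 (adjusted p = 0.0801 and 0.121, limma). Pyy, of the L cell, was 3.16-fold lower, a call lost under quantile normalization and without colon 1 (adjusted p = 0.0914, limma), and Gcg, its partner in the same cell, was not called. Guanylate cyclase C (Gucy2c), the receptor for guanylin, was 6.04-fold lower and Ffar4, a fatty acid receptor, 4.26-fold lower in the ileum, 2 of 5 lower genes among 11 of that group. Of these 5, 2 were lower under all 4 scalings, and 3 genes were lower without colon 1. Among 21 receptors that act on secretion in either direction, 4 were lower, 3 of them under all 4 scalings, and 1 higher, against 7.66% of all genes each way. No gene of the list was higher under quantile normalization or without ileum 3, colon 1 or colon 3. Sstr1, a somatostatin receptor, was -2.83, -1.85 and -2.02 in the ileum, against 3.27, 3.63 and 3.20 in the colon, 45-fold lower (adjusted p = 2.25e-05, limma), and the adenosine receptor Adora2b was 10.9-fold lower.

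Genes that set position along the body axis were lower in the ileum or not called. Of 9 Hox genes of paralogue groups 9 to 13, 4 were lower, all under all 4 scalings, and 0 higher. Of these 9, 0 were well above background in all 3 ileal samples and 5 in all 3 colonic samples. The ileal levels of this list therefore rest in part on signal near background. Besides Hoxb13, Hoxa9 was -1.86, -1.45 and -1.48 in the ileum, against 2.07, 0.91 and 1.50 in the colon, 9.64-fold lower, and Hoxa11 and Hoxd13 were 6.94-fold and 8.27-fold lower. Hoxa9 and Hoxa11 were well above background in 2 ileal samples and Hoxd13 in 1. Of 16 genes of groups 1 to 8, 5 were lower and 0 higher, 4 under all 4 scalings, among them Hoxa4, 17.1-fold lower, and Hoxb7, 7.22-fold lower. Of these 16, 5 were well above background in all 3 ileal samples and 15 in all 3 colonic samples. Of 28 other regional transcription factors 4 were higher and 5 lower, 3 and 4 of them under all 4 scalings. Gata4, known for its role in the proximal small intestine, was 2.78-fold higher in the ileum, a call lost with ileum and colon alone plus a dye term and with Cy3 samples only (adjusted p = 0.0907 and 0.0645, limma). Foxa2 was 6.56-fold lower, and Klf4 and Klf5, factors of surface and crypt cells, 7-fold and 6.32-fold lower. Cdx2, an intestinal master factor, was 4.43-fold lower, a call lost under normexp.

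Energy metabolism showed many small steps among bright genes. Of 39 genes of mitochondrial oxidative phosphorylation, 20 were lower in the ileum and 0 higher, with a list median of -1.02 against -0.37 for the brightest class of all genes. The direction did not hold across scalings, since quantile normalization called 2 lower and 2 higher with a median of 0.01, and normexp 1 lower and 2 higher. Without ileum 1 there were 12 lower genes and without colon 1 there were 11. Ndufa1, a subunit of complex I, was the 1 member called lower under all 4, at 3.43, 4.51 and 4.07 in the ileum, against 6.42, 6.55 and 6.52 in the colon. Ketogenesis and fatty acid oxidation gave 10 lower and 0 higher of 26, of which 3, Acads and Pparg among them, were called under all 4 scalings. Acads, which oxidises short-chain fatty acids, was 3.44, 3.94 and 3.63 in the ileum, against 6.23, 6.33 and 6.52 in the colon, 6.64-fold lower in the ileum (adjusted p = 3.42e-05, limma). Pparg, a nuclear receptor for fatty acids, was 12.3-fold lower. Cholesterol synthesis gave 6 lower and 1 higher of 23, and 1 and 1 of these under all 4 scalings. The lower one was Idi1, an enzyme of the route, 4.85-fold lower in the ileum at the 75th percentile scaling.

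Genes of foreign compound metabolism went both ways. Of 30 phase 1 enzymes 6 were higher and 5 lower, 5 and 4 under all 4 scalings. Of 25 conjugation enzymes 3 were higher and 7 lower, 2 and 4 under all 4 scalings, and 4 were lower without ileum 1. Adh1c was -0.57, -0.31 and -0.39 in the ileum, against 5.27, 5.38 and 5.67 in the colon, and Ces1d, a carboxylesterase, was -3.10, -2.27 and -2.30 in the ileum, against 2.09, 2.08 and 2.09 in the colon, 22.1-fold lower in the ileum (adjusted p = 2.29e-06, limma). Cyp3a9 was 9.91-fold lower, not called with Cy3 samples only (adjusted p = 0.0678, limma), and Cyp3a18 of the same family 6.92-fold higher. The glutathione transferase genes also split, with Gsta1 16.6-fold lower and Gsta2 9.49-fold higher. Such near-identical copies can share signal on an array. Rbp2, the retinol binding protein of enterocytes, was 2.26, 4.07 and 1.82 in the ileum, against -1.96, -1.84 and -1.79 in the colon, 24.4-fold higher in the ileum (adjusted p = 0.000266, limma). Transporters for drugs and organic ions gave 1 higher (Slc28a2, a nucleoside transporter) and 1 lower (Abcc5) of 28, both under all 4 scalings.

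Markers of other cell types and of handling differed in both directions. Of 18 fibroblast and matrix genes 6 were higher and 1, Thbs4, was lower, with 4 and 1 under all 4 scalings. Col1a2 was 10.9-fold and Vim 9.43-fold higher in the ileum. Where each of the 6 samples had to be well above background, the other probe of Col1a2 stood for the gene, and Col1a2 differed by 0.30 (log2, adjusted p = 0.563, limma). The summed level of the list was 9.16 to 11.4 in the ileum, against 36.3 to 49.7 in the colon, and without Thbs4 it was 9.09 to 11.2 in the ileum, against 6.38 to 6.89 in the colon. Smooth muscle (8 genes), enteric neurons and glia (11), red blood cells (4) and pancreatic acinar cells (17) had 0 called genes in the limma fit. Of their genes 2, 1, 1 and 2 were at an unadjusted p under 0.05, as were 9777 of all 33790 genes. Of 22 immediate early and heat shock genes, which respond to cell isolation, 15 were lower in the ileum and 1 higher, with 5 and 0 under all 4 scalings. Their summed level was 172 to 237 in the ileum, against 689 to 869 in the colon. Egr1, an immediate early gene, was 3.13, 2.89 and 3.42 in the ileum, against 6.27, 5.87 and 5.50 in the colon, 6.78-fold lower in the ileum (adjusted p = 0.000119, limma). The part of cell isolation in the lower ileal levels of other genes was not tested. Of 26 proliferation genes 1 was higher, Mcm5, and of 11 crypt stem cell genes 1 was lower, Prom1.

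Levels in the jejunum differed among the leading genes. Otc averaged 2.81 in the jejunum and Hnmt 3.41, with ileum minus jejunum differences of 0.47 and -0.86 (log2, adjusted p = 0.543 and 0.111, limma), neither called. Si and Mttp were already lower in the ileum than in the jejunum, by 2.65 and 2.06 (log2, adjusted p = 0.0228 and 0.0414, limma). Some genes stood higher in the ileum than on both sides. Fabp6, saturated in every ileal sample, was called higher than in the jejunum (adjusted p = 1.08e-07, limma). RT1-Ba exceeded it by 5.24, Mmp7 by 3.74 and Cd74 by 2.87 (log2, adjusted p = 0.000275, 0.0234 and 0.00381, limma). Others were lower in the ileum than on both sides. Adh1c averaged 4.34 in the jejunum, where the ileum was lower by 4.84, and Car1 averaged 1.42, where it was lower by 2.38 (log2, adjusted p = 1.08e-07 and 0.011, limma). Mptx1, Ccn3, Thbs4 and Hoxb13 did not pass the test against the jejunum, with differences of 1.45, -0.04, 0.09 and -0.36 (log2). The same ileal samples enter both comparisons.

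**Figure D5:**
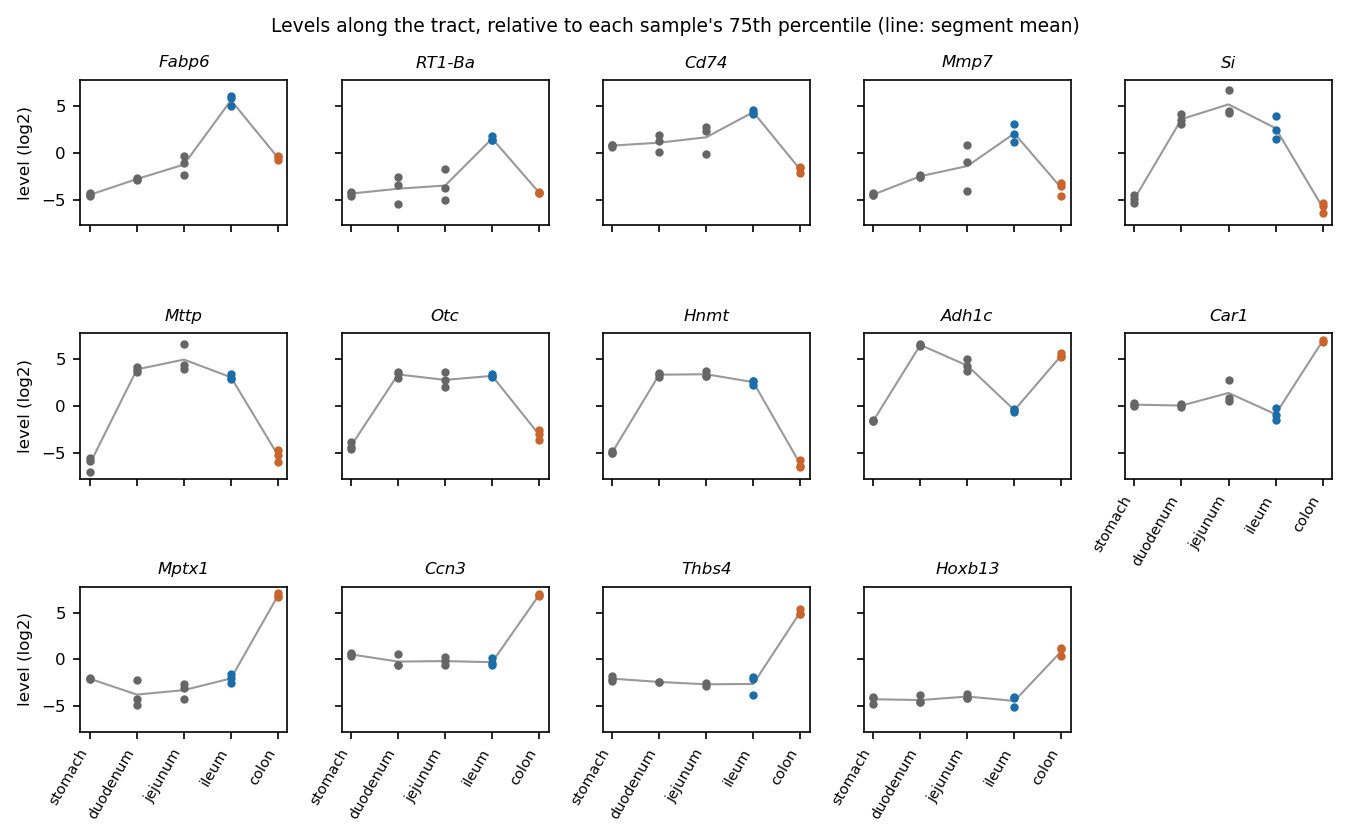
Levels of 14 genes in the 5 segments from stomach to colon (log2 intensity relative to the sample's 75th percentile), with 1 point per sample, ileum in blue, colon in orange and a grey line through the segment means. Fabp6, RT1-Ba, Cd74 and Mmp7 peak in the ileum, Adh1c and Car1 have low ileal levels between higher jejunal and colonic ones, and Mptx1, Ccn3, Thbs4 and Hoxb13 are high in the colon.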

How the data were processed

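Processed signals of Agilent whole-genome rat arrays were deposited for 15 samples, and the channel of the dye that the labels gave each sample was used. Per the file headers, these deposited intensities were background-subtracted and dye-normalized by the scanner software, and the authors' flags for outlier, saturated and well-above-background spots were deposited beside them. The deposited value table matched them within 0.02 (log2) for 100.0% of spots in each sample. Intensities were put on the log2 scale, each sample's 75th percentile was subtracted, and outlier spots were left out. Probes well above background in all 3 samples of at least 1 segment were kept (38846 probes), and the brightest probe stood for a gene. Of the 897 called genes with more than 1 probe, 571 had the same sign of difference in all probes. In the stomach samples, 95.4% to 97.1% of spots were well above background. Of the genes tested, 1043 were well above background in no ileal or colonic sample. Precision is limited by the number of arrays. Names came from the scanner files and RefSeq tables: 11044 probes matched by accession, 4999 by current and 3351 by older symbol, 1031 by gene ID, and 20587 kept the file's name.

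Differences were tested two-sided with limma 3.58.1 in R 4.3.3 (segment and dye as terms, slide as random block, intensity trend, Benjamini-Hochberg over all genes), which was also tested on simulated data. Figures used matplotlib in Python. Folds and differences are dye-adjusted estimates of this model, whereas levels are the samples' own values. Named genes had no provisional symbol and were the 10 largest and 10 smallest called differences measured on both sides, with samples not overlapping and calls kept in all 6 leave-one-out fits, the 4 largest bounds each way, the 5 segment markers, and per list the largest rise, fall and next change and the first 4 members. A few genes that this rule names are not reported here. Other list members were named after their values were seen. The members and the 46 lists (751 distinct genes tested) were chosen with earlier results of these data known. The mean signal columns were not used here, so normexp used median signals with an offset of 50. Probe positions and sequences were not used here. The promoter motifs were chosen with these promoters known. A first search used longer letters for the X box and the receptor element, which fewer promoters held, and the shorter ones reported replaced them.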

Additional observations from a re-analysis of the deposited data

How the results depend on the processing

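The count of genes higher in the ileum, 2588 at the settings reported, was 1711 with normexp background correction, 1691 when a probe had to be well above background in the ileum or the colon, 5614 in a model of ileum and colon alone without a dye term, 1514 in that model with one, and 1320 with Cy3 samples only. The count lower in the ileum, 2589, was 1573 with quantile normalization, 5396 in the model of ileum and colon alone without a dye term and 1315 with Cy3 samples only. Leaving out 1 sample gave 1538 to 2642 higher and 1477 to 2370 lower genes, the lowest of both without colon 1. Correlations of same-numbered deviations were 0.12, -0.15 and -0.13, and those of the other pairs ran from -0.12 to 0.20. With 3 samples per segment, these correlations cannot decide whether the replicate numbers pair the samples. With the replicate block 1742 genes were higher and 2097 lower. Alternatives chosen after seeing the data were the colon averaged as 1 sample (2014 higher, 1862 lower), genes well above background in all 6 samples (1752 and 2717) and leaving out ileum 1 and colon 3 (2201 and 1795). Of 133 genes named and called, 112 kept their call and direction under every alternative that tested them, and 0 of the 133 changed sign. Part of these genes were named because their calls held in the 6 leave-one-out fits, which are among these alternatives. Of all 5177 called genes, 2611 were called in all 6 of those fits. Genes named but not called changed sign as follows. Nr1h4 ran from -0.48 to 0.29 over the fits that left out 1 sample (0.01 without colon 1) and was 0.33 without ileum 1 and colon 3. Fabp1 was 1.13 under quantile normalization, 1.20 under normexp, 0.12 as a mean of probes, -0.88 to 0.03 with 1 sample left out and 0.01 without ileum 1 and colon 3. Cd68 was 0.26 under quantile normalization, 0.00 under median scaling, 0.72 under normexp, 0.05 both with ileum and colon alone plus dye and with Cy3 samples only, and -0.18 to 0.10 with 1 sample left out (0.08 without ileum 3). Fgf19 was -0.40 under quantile normalization, -0.82 under normexp and -0.19 with the replicate block. Tff3 was 0.96 under quantile normalization, 1.54 under normexp, 0.34 as a mean of probes and 0.01 with the replicate block. Agr2 was 1.04 and 0.84 under quantile normalization and normexp (all log2, ileum minus colon). The cause of these changes was not tested. Signal limits what the dim genes can show: 30 called genes were well above background in no ileal or colonic sample, and for 498 no sample of the lower side was.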
